A study of Mus musculus with 4 samples.

Results

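Of the 35809 genomic regions that carried a called NR2F1 peak in all 4 libraries, 5201 (14.5%) lay on autosomes with their midpoint more than 100 kb from the start of transcription (TSS) of any protein-coding gene. They are called distal members here. They were found by merging peaks across libraries wherever 1 bp or more was shared, keeping those merged regions in which each library had a peak, and measuring the distance from each midpoint to the TSSs of the GENCODE M21 annotation of mm10, so position and the presence of a peak chose them, not their level. The 2 members just inside the limit lay 100.034 kb from *Prkcb* and 100.063 kb from *Pkdcc*, with mean signals of 13.4 and 42.6 CPM, the cut sites of a region scaled to the total of its library. The 2 regions just outside lay 99.996 kb from *Lingo1* and 99.961 kb from *4933402J07Rik*, with 5.0 and 22.2 CPM.

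The signal comes from single-cell CUT&Tag, in which an antibody, here one against NR2F1, brings the transposase Tn5 to bound DNA, and each cut site recorded in a barcode is a count. The cells came from microdissected rhombomere 4 and neighbouring hindbrain tissue of E10.5 mouse embryos. All embryos carried the Isl1MN-GFP transgene, which reports motor neurons that express *Isl1*. Cells were sorted for GFP, and since the gate was opened to GFP-negative cells at the end of each sort, the barcodes can also hold other cells of the dissected tissue. The wildtype (WT) libraries each pooled 26 embryos. The mutant libraries pooled 8 and 16 embryos homozygous for a knockin single-nucleotide variant, written Fam5snv/snv, in cRE2, a conserved element near *Gata2* on chromosome 6. The labels call this genotype only mutant, and its name is taken from the methods of the study. Each genotype thus had 2 libraries, and a p-value here measures the spread between pools of embryos.

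NR2F1 (COUP-TFI) is an orphan nuclear receptor that patterns the hindbrain, the inner ear and the cortex. COUP-TF proteins bind as dimers to repeats of the core AGGTCA, with a preference for a direct repeat with a single base between the cores. Regulators of development often sit beside long stretches without other coding genes, so-called gene deserts, and enhancers in these stretches or in the long introns of neighbours can act on a promoter far away. The coding gene nearest to a distal element is therefore a name for its position, and need not be its target.

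Sequences are shown for 2 sets of members, first the members with an exact direct repeat at their centre, which is the core AGGTCA, any 1 base and AGGTCA again, and then members around *Gata3*, *Tbx3* and the COUP-TF genes themselves. An exact repeat on either strand within 100 bp of the midpoint was present in 17 of 5194 tested members (0.327%), in 91 of all 35770 tested regions (0.254%), in 2 of 12647 promoter regions (0.0158%) and in 72 of the 17929 tested regions that are neither members nor promoter regions (0.402%). In windows of the same length 2000 bp upstream of the same members there was 1. The 6 of these members with the highest signal are printed below 5′ to 3′ on the strand that reads AGGTCA, from mm10 (GRCm38), in lower case with the repeat in capitals.
Nearest Ppif, in an intron of Zmiz1, chr14:25586914-25586974, minus strand: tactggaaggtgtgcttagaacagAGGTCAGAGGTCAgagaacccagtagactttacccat
Nearest Calcrl, between genes, chr2:84260892-84260952, minus strand: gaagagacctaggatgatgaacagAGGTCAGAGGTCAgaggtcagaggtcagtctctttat
Nearest Cmpk2, between genes, chr12:26872655-26872715, minus strand: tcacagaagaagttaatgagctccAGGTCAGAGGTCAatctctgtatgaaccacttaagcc
Nearest Ntm, in an intron of Ntm, chr9:29225005-29225065, plus strand: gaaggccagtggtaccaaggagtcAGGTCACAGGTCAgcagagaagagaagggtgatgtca
Nearest Pik3r1, between genes, chr13:102084561-102084621, plus strand: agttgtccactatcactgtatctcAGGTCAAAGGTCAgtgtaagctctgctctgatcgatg
Nearest Cdk5rap2, between genes, chr4:70102297-70102357, plus strand: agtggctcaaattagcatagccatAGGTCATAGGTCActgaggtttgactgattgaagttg

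The member nearest *Calcrl* holds further copies of the core directly after the capitals. The member nearest *Ppif*, which lies in an intron of *Zmiz1*, carried 71.8 and 61.5 CPM in WT replicates 1 and 2 against 64.3 and 81.0 CPM in Fam5snv/snv replicates 1 and 2. The *Calcrl* member carried 51.8 and 53.8 CPM in WT against 52.8 and 43.7 CPM in Fam5snv/snv. In both the genotypes overlapped. Over all 17, the mean signal ran from 5.41 to 69.7 CPM with a median of 14.8 CPM, and 8 had a positive log2 fold change (Fam5snv/snv minus WT).

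The second set shows the closest match to the repeat anywhere in 4 members that the results below turn on, with the 13 letters matched in capitals.
Gata3 member, 1 mismatch, chr2:9338630-9338690, plus strand: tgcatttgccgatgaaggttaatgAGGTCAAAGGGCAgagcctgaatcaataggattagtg
Tbx3 member, 2 mismatches, chr5:119462825-119462885, minus strand: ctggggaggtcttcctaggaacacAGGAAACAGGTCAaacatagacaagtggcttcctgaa
Nr2f1 member, 3 mismatches, chr13:78936957-78937017, plus strand: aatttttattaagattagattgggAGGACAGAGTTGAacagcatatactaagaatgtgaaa
Nr2f2 member, 1 mismatch, chr7:70846187-70846247, minus strand: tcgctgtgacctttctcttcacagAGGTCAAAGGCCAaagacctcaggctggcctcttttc

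Over whole regions such matches are common. A match with at most 1 mismatch was in 11.2% of tested members and 10.1% of all tested regions, with at most 2 in 37.7% and 36.0%, and with at most 3 in 86.0% and 86.0%. Within 100 bp of the midpoint, the core AGGTCA was in 20.5% of members, against 11.7% of the windows 2000 bp upstream of them, 9.39% of promoter regions, 18.9% of other regions and 15.8% of all tested regions. The repeat with at most 2 mismatches was in 6.16% of members, 2.87% of their upstream windows, 2.02% of promoter regions and 6.19% of the other regions. Promoter regions are those that overlap 1 kb on either side of a coding TSS, and other regions are those that are neither.

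Distal members were thinner on the genome than regions nearer to genes. DNA more than 100 kb from a coding TSS made up 926 Mb of the 2396 Mb of autosomal sequence (38.7%) and held 5.61 members per Mb, whereas the rest held 20.5 regions per Mb. The density fell from 11.1 regions per Mb between 50 and 100 kb to 8.83 between 100 and 200 kb and 3.97 beyond 200 kb. Of the members, 2768 (53.2%) lay between 100 and 200 kb from a TSS, 1998 (38.4%) between 200 and 500 kb, 370 (7.11%) between 500 and 1000 kb and 65 (1.25%) farther out. Their median signal over those distances was 13.2, 12.9, 12.3 and 9.46 CPM, beside 13.1 CPM for regions between 50 and 100 kb. The farthest member lay 2680 kb from *Pcdh20*, a protocadherin gene, on chromosome 14, with 2.10 and 8.79 CPM in WT against 6.84 and 9.36 CPM in Fam5snv/snv. The members next in distance lay 2195 kb from *Pik3c3* and 2119 kb from *Celf4* on chromosome 18.

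**Figure D1:**
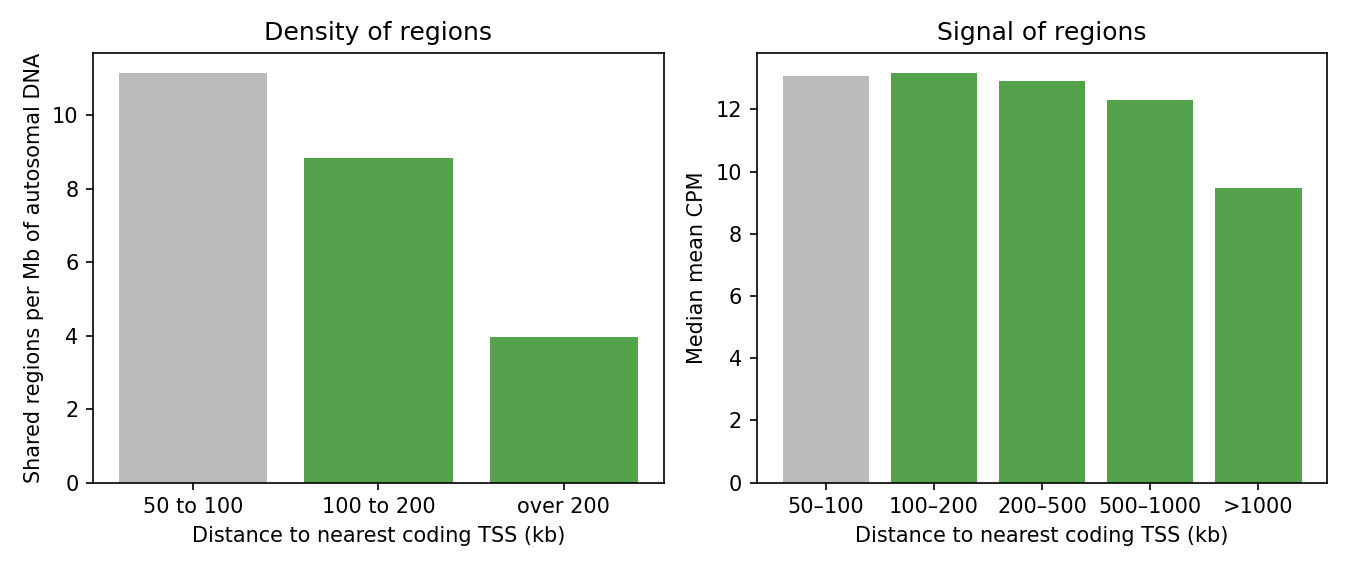
Regions with a peak in every library per Mb of autosomal DNA (left, bars) and the median over regions of their mean CPM in the 4 libraries (right, bars), by distance to the nearest coding TSS in kb. Green bars are distal members and the grey bar is the band from 50 to 100 kb. Density falls from 11.1 to 3.97 regions per Mb, while the median signal stays between 12.3 and 13.2 CPM up to 1000 kb and is 9.46 CPM beyond.

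Most members lay outside coding genes. Between genes lay 2993 (57.5%), in introns of protein-coding genes 1500 (28.8%), in introns of other genes 578 (11.1%) and in exons 130 (2.50%). A TSS of a gene that is not protein-coding lay within 1 kb of 321 members (6.17%). Among the 1558 members inside a protein-coding gene, 483 (31.0%) were inside a gene other than the one with the nearest TSS. Compared with promoter regions, members were narrower, with a median width of 1663 bp against 2227 bp, and poorer in G and C, at a median of 46.3% against 55.0%. Their observed-to-expected CpG ratio, which is high in CpG islands, had a median of 0.212 against 0.585. The median share of repeat-masked bases was 12.7% in members and 10.4% in promoter regions.

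The median tested member carried 13.0 CPM (interquartile range 7.83 to 23.4), against 28.4 CPM in promoter regions and 16.5 CPM over all tested regions. Other regions were close to members, at a median of 12.2 CPM. Signal was concentrated. The 519 members in the top 10% carried 40.9% of the summed mean CPM, 115 members (2.21%) were above 100 CPM and 451 (8.68%) below 5 CPM. Across the 5194 tested members, Spearman's rho between libraries was 0.90 for the Fam5snv/snv pair, 0.73 for the WT pair and from 0.73 to 0.80 between genotypes. The points of these correlations share the same regions, and the libraries differ in depth.

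The strongest member was 1 region on chromosome 17 (chr17:39842788-39849035) whose nearest coding TSS is that of *Esp38*, a pheromone gene. It lies over the noncoding gene *Gm26917*, and RefSeq places a copy of small-subunit ribosomal RNA sequence there, so reads from the many ribosomal DNA copies may not be separable. It carried 5051 and 5140 CPM in WT against 4884 and 2736 CPM in Fam5snv/snv, ranked first of all tested regions, and held 2.25% to 5.11% of the cut sites in members, depending on the library. Next came a region 148 kb from *Rybp*, which encodes a Polycomb-associated protein, with 437 and 358 CPM in WT against 318 and 332 CPM in Fam5snv/snv. All WT values there lie above the mutant values, whereas in the next 8 members the genotypes overlapped. These were nearest to *Kif26a*, *A530016L24Rik*, *Uaca*, *Dmrta2*, *4931429L15Rik*, *Gse1* (2 regions) and *BC067074*, with CPM from 153 to 385 over the libraries. After every barcode was thinned to 567 cut sites, which left out 641 barcodes of WT replicate 1 and 0 of the other libraries, 14.3% and 12.8% of the WT barcodes and 12.0% and 12.0% of those of Fam5snv/snv had a cut site in the *Rybp* member. Without thinning this was so for 19.2% and 26.4% against 32.5% and 33.1%, where the median barcode had 879 and 1867 against 2693.5 and 2984 cut sites.

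The members were spread over 1650 nearest coding genes, which is 7.97% of 20698 autosomal coding genes and 48.0% of the 3437 that have DNA more than 100 kb from a TSS beside them. The median gene had 2 members and 616 genes had 1. The 85 genes with at least 10 members held 1121 members (21.6%). Leading the list were 4 genes with 23 members each. *Celf4*, which encodes a neuronal RNA-binding protein, had 15 of its 23 inside its own introns or exons. *Zfhx3*, which encodes a homeodomain and zinc-finger transcription factor, had 21 of 23 inside the gene. *Cdh4*, the gene of R-cadherin, had 11 of 23, and *Zfp608*, a zinc-finger gene, had 0 of 23, all lying in the desert beside it.

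After these came *Fam19a5*, a gene of a secreted brain protein, with 22 members and *Auts2*, a neurodevelopmental gene, with 22, of which 17 lay within *Auts2*. *Matn1*, a cartilage matrix gene, had 21 and *Slc39a11*, a zinc transporter gene, had 19. *Ajap1*, which encodes a junction protein, had 19 and *Rapgef5*, which encodes an activator of Rap proteins, had 18. Among these 10 genes the density was highest beside *Slc39a11* and *Matn1*, at 65.1 and 62.0 members per Mb of DNA more than 100 kb from a TSS, and lowest beside *Celf4*, at 9.78 per Mb. Of the 19 members of *Slc39a11*, 15 lay inside the gene, and the interval between its TSS and that of *Sox9*, a regulator of cartilage and glia, held 25 members. Of the 18 members of *Rapgef5*, 0 lay inside it and 12 inside another coding gene, *Ptprn2* for the strongest of them. By intervals between neighbouring coding TSSs, the most members lay between *Rps24* and *Zmiz1* (30), *Nphp4* and *Ajap1* (29) and *Matn1* and *Ptpru* (28). With members per Mb in place of the plain count, 5 of the 10 leading genes were kept among genes with at least 0.5 Mb of such DNA. *Slc39a11*, *Matn1* and *Rapgef5* (43.3 per Mb) were left out by that floor, with 0.292, 0.339 and 0.415 Mb. Among the genes above it the highest density was 35.4 per Mb, beside *Ajap1*.

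Summed over its members, *Celf4* carried 775 and 596 CPM in WT against 758 and 778 CPM in Fam5snv/snv, and the genotypes overlapped. *Fam19a5* overlapped too, with 652 and 484 CPM against 635 and 624 CPM. In the other 8 both mutant sums were above both WT sums. *Cdh4* carried 332 and 311 CPM in WT against 441 and 460 CPM in Fam5snv/snv, and *Auts2* 309 and 249 CPM against 437 and 425 CPM. *Zfhx3* was closer, with 530 and 419 CPM against 551 and 582 CPM. The count of 8 of 10 stands beside 38.5% of the 1650 genes with both mutant sums above, and 0 of 10 beside 8.79% with both below. Of the 85 genes with at least 10 members, 51 were higher in both mutant libraries, 2 lower (*Rybp* and *Tmem161b*, named after their values were seen) and 32 overlapped. Called peaks were longer in the mutant libraries, as given with the genotype comparison, and the part of this in the sums was not tested.

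**Figure D2:**
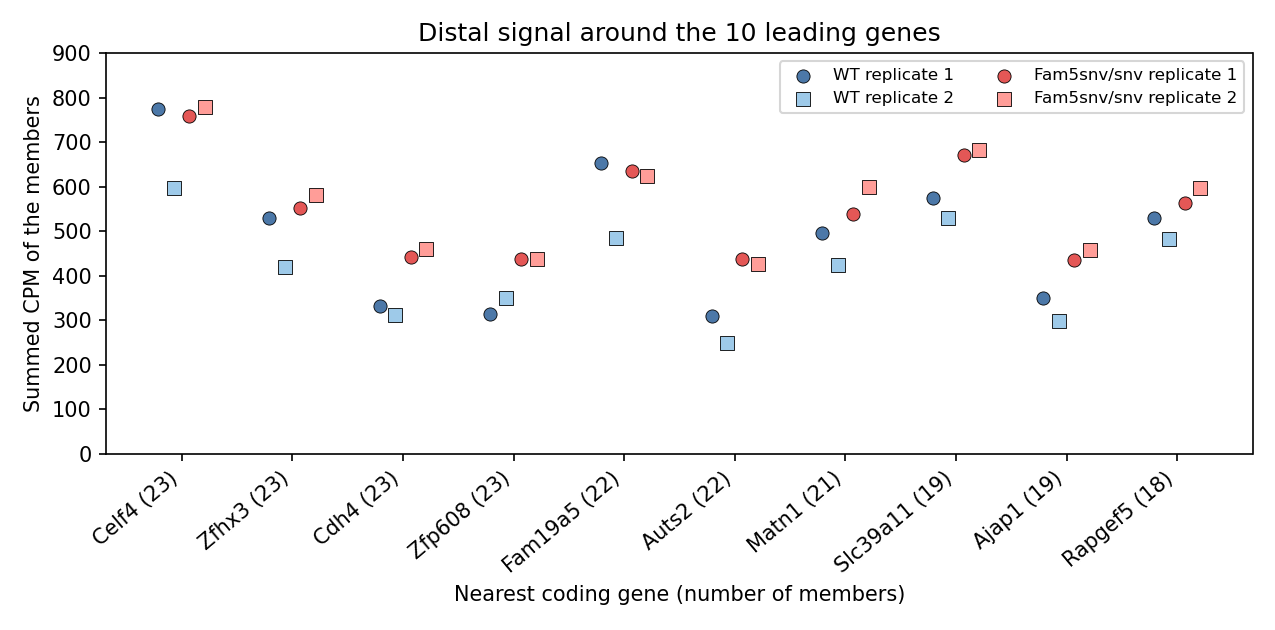
Summed CPM of the members nearest to each of the 10 leading genes (vertical axis from 0), with 1 point per library and the number of members in parentheses. Both red points (Fam5snv/snv) lie above both blue points (WT) for 8 genes, and the genotypes overlap for *Celf4* and *Fam19a5*.

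Single members did not follow the sums evenly. The strongest member of *Zfhx3*, in its intron 341 kb from a TSS, carried 147 and 91.4 CPM in WT against 100 and 83.2 CPM in Fam5snv/snv, while log2 fold changes of its members ran from −0.64 to 1.55. The strongest of *Cdh4* carried 85.5 and 61.2 CPM against 66.6 and 51.3 CPM, with its members running from −1.76 to 2.52. The strongest of *Auts2* carried 56.1 and 26.0 CPM against 77.4 and 57.3 CPM. In each of the leading genes the strongest member held 12.5% to 20.3% of the gene's summed signal.

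The COUP-TF genes had distal members of their own. *Nr2f2*, which encodes COUP-TFII, had 15 between 255 and 805 kb away and *Nr2f1* had 11 between 228 and 1146 kb away, while *Nr2f6* had 0. The strongest *Nr2f2* member, 480 kb away and shown above with 1 mismatch, carried 260 and 232 CPM in WT against 184 and 187 CPM in Fam5snv/snv, 44.7% of the gene's distal signal. The genotypes did not overlap there, but the log2 fold change of −0.41 (SE 0.22) had an edgeR adjusted p = 0.603. The strongest *Nr2f1* member, 737 kb away, carried 205 and 151 CPM in WT against 156 and 152 CPM in Fam5snv/snv and overlapped. Of the 26 members, 0 had an unadjusted edgeR p under 0.05. The background was 5.29% higher and 3.37% lower over all tested regions, and 9.57% and 1.39% over all tested members. The median log2 fold change of the 26 was 0.20 against 0.28 over all tested members.

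Among regulators of motor neurons and the hindbrain, 18 of 37 listed genes had members, 122 in all. *Zfhx3* (23), *Nkx6-1* (13), a homeodomain gene of ventral progenitors, and *Meis1* (11), which encodes a Hox cofactor, had most, and *Gata2*, *Hoxb1* and *Mnx1* had 0. *Isl1*, the gene behind the reporter, had 9, from 180 to 561 kb away, the strongest with 91.4 and 77.7 CPM in WT against 95.6 and 72.2 CPM in Fam5snv/snv, which overlap. *Gata3*, which like *Gata2* is required for inner ear efferent neurons, had 5 between 245 and 1187 kb away. Of the 122 members, 7 (5.74%) were higher and 3 (2.46%) lower at an unadjusted edgeR p under 0.05, with a median log2 fold change of 0.28. The background was 5.29% and 3.37% of all tested regions, and 9.57% and 1.39% of all tested members.

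Regulators of neural progenitors and interneurons had members at 29 of 52 genes, 133 in all, led by *Sox11* (12), *Sox9* (12) and *Irx3* (10). Their median log2 fold change was 0.24, with 11 (8.27%) higher and 2 lower at an unadjusted p under 0.05, beside the same background of 5.29% and 3.37%. Adhesion and axon guidance genes had members at 46 of 58 genes, 221 in all, led by *Cdh4* (23), *Robo1* (16), a receptor for Slit proteins, and *Plxna2* (14), a semaphorin receptor gene. Their median was 0.31, with 28 (12.7%) higher and 3 (1.36%) lower, beside 5.29% and 3.37% of all tested regions and 9.57% and 1.39% of all tested members.

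The 2 lists for other cell types held few members in all. Neural crest and mesenchyme regulators had members at 7 of 30 genes, 17 in all, with 2 higher and 0 lower and a median of 0.29. Endothelial and blood genes had them at 5 of 18 genes, 11 in all, with 0 in either direction and a median of 0.06. With so few members, and a background of 5.29% higher and 3.37% lower (9.57% and 1.39% of all tested members), nothing can be read from these counts. Housekeeping genes had members at 0 of 12. The lists differed in how many genes had any DNA more than 100 kb from a TSS beside them, with 56 of 58 adhesion genes, 35 of 52 progenitor genes, 20 of 37 motor neuron genes, 22 of 30 neural crest genes, 6 of 18 endothelial and blood genes and 1 of 12 housekeeping genes. The genes with a member also differed in how much such DNA lay beside them. It came to 62.3 Mb for adhesion genes, 11.3 Mb for progenitor genes and 9.54 Mb for motor neuron genes. For neural crest genes it was 1.24 Mb and for endothelial and blood genes 2.09 Mb. The part of these differences in the counts was not tested. The lists were drawn up with earlier results of these data known. Signal at the promoters of cell type markers was present for every marker given here, with mean CPM of 29.4 for *Isl1*, 33.3 for *Hoxb1* and 62.9 for *Chat*, which mark the motor neurons, and 25.3 for *Sox10*, 11.3 for *Prrx1*, 22.9 for *Erg* and 22.1 for *Tal1*, which mark other cells. This is binding signal and not expression.

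Against WT, the distal members as a group gathered a larger part of the signal of shared regions in Fam5snv/snv. Of the cut sites in shared regions, 10.7% and 10.3% lay in members in WT and 12.2% and 12.5% in Fam5snv/snv. Relative to promoter regions the ratio was 0.197 and 0.190 in WT and 0.249 and 0.262 in Fam5snv/snv. The genotypes did not overlap in either measure. The difference was 0.24 on the log2 scale for the share (pooled SD 0.034, n = 2 and 2 libraries) and 0.41 for the ratio (pooled SD 0.045), each with an exact permutation p = 0.333, two-sided, the smallest that 2 against 2 libraries allow.

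With all deposited cut sites as the denominator, the share was 10.6% and 7.98% in WT and 9.78% and 9.28% in Fam5snv/snv, the genotypes overlapped and the difference was 0.05 (exact permutation p = 1). The members' share of the called peak length moved with the genotype as well, at 11.4% and 11.3% in WT and 12.4% and 12.6% in Fam5snv/snv. Per kb of called peak the differences of share and ratio were 0.10 and 0.10. In the median barcode 47 and 73 members had a cut site in WT and 122 and 125 in Fam5snv/snv, at the unequal depths given above, and 10.6% and 10.4% against 12.2% and 12.6% of its cut sites in shared regions lay in members.

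Region by region, edgeR's quasi-likelihood test called 0 members higher and 0 lower in Fam5snv/snv after Benjamini-Hochberg adjustment over the 35770 tested regions (background 0.0% in each direction, smallest adjusted p of a member 0.573). At an unadjusted p under 0.05, 497 members (9.57%) were higher and 72 (1.39%) lower, against a background of 5.29% and 3.37% of all tested regions. DESeq2 called 107 members higher (2.06%) and 10 lower (0.193%), against a background of 1.02% and 0.542%. Both mutant libraries were above both WT libraries in 1839 members (35.4%, background 23.2%) and below both in 527 (10.1%, background 21.4%). The median log2 fold change was 0.28 in members, −0.21 in promoter regions, 0.17 in other regions and 0.02 over all tested regions, and 69.8% of members against 51.7% of all tested regions had a positive value. With WT replicate 1 left out edgeR called 481 members higher and 42 lower (background 4.17% and 1.17%), and with WT replicate 2 left out 764 and 109 (background 11.4% and 6.21%). In these fits the lone WT library was assumed to vary like the mutant pair.

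**Figure D3:**
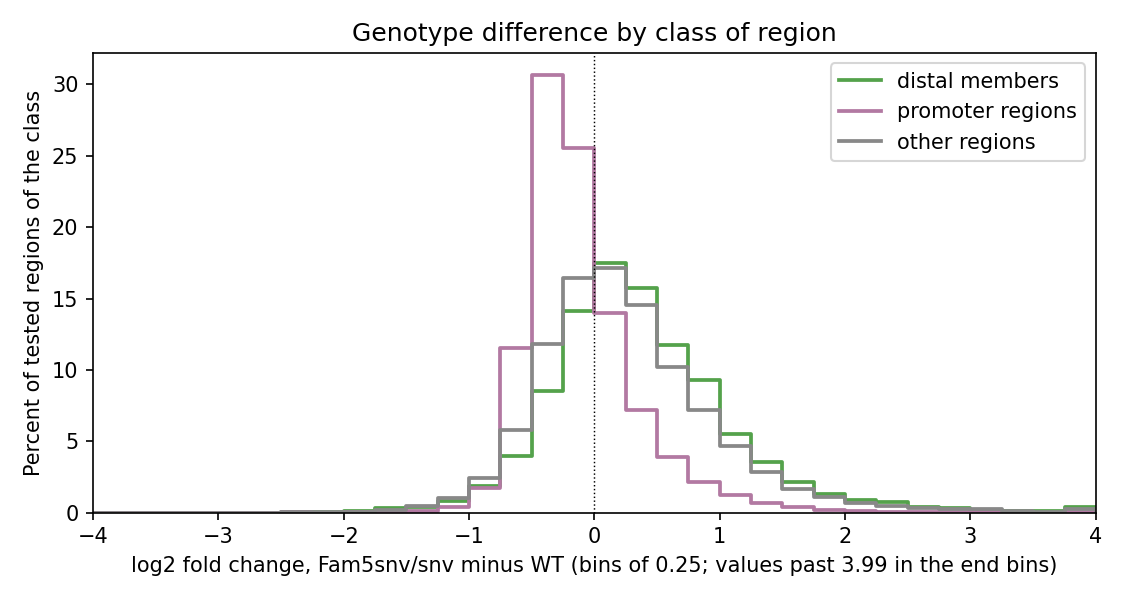
Distribution of the log2 fold change (Fam5snv/snv minus WT, horizontal axis, bins of 0.25) as a percent of the tested regions of each class (vertical axis), for distal members, promoter regions and other regions. The curve of members is centred at a median of 0.28, that of promoter regions at −0.21 and that of other regions at 0.17.

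The fold change moved with how much of a member each library's own peaks covered. The median member was covered by 490 bp of called peak in WT replicate 1 and 988 bp in WT replicate 2, and by 1291 and 1497 bp in the Fam5snv/snv libraries, and WT replicate 1 was the least covered library in 89.4% of members. Called peaks were longer in Fam5snv/snv in 97.3% of members, and in 96.7% of all shared regions. When the members were divided into 4 groups of equal size by the log2 ratio of called length, the median log2 fold change was −0.23, 0.13, 0.43 and 1.03, from the lowest to the highest ratio. Per kb of called peak, the median log2 difference was −0.70 in members and −0.79 over all tested regions, so the direction turned and 7.11% of members were positive. The part of called length in the genotype difference was not tested. Among the 914 members of which every library covered at least 50%, 8 were called higher and 1 lower (background 0.157% and 0.0449% of 8900 regions), and the median log2 fold change was 0.20.

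**Figure D4:**
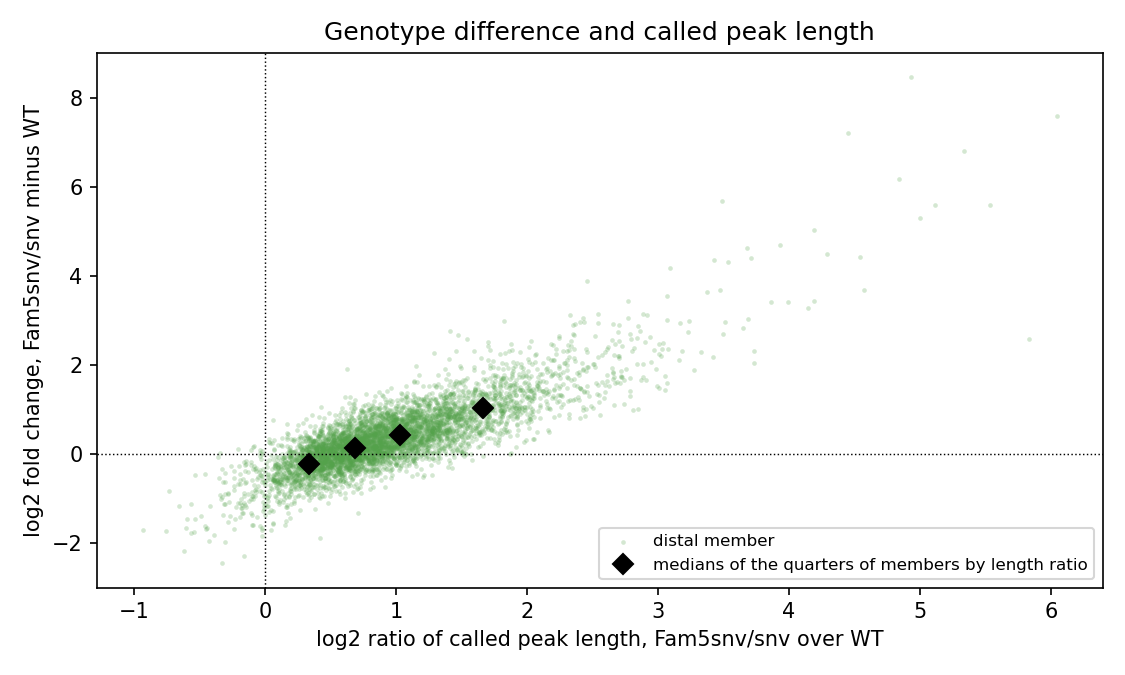
Log2 fold change of each tested member (Fam5snv/snv minus WT, vertical axis) against the log2 ratio of its called peak length in the same direction (horizontal axis). Green points are members and black diamonds mark the medians of 4 groups of equal size by length ratio, which climb from −0.23 to 1.03 in fold change.

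The median shift was smaller in stronger members. In 4 groups of equal size by mean CPM, from below 7.84 CPM to above 23.4 CPM, the median log2 fold change was 0.44, 0.42, 0.30 and 0.11. The median log2 ratio of called length fell over the same groups from 1.08 to 0.67. At an unadjusted edgeR p under 0.05, 94, 136, 169 and 98 members were higher, from the weakest group to the strongest. In the same order 3, 14, 19 and 36 were lower, in groups of 1298 or 1299. Over all tested regions 5.29% were higher and 3.37% lower, and over all tested members 9.57% and 1.39%. By distance the median was 0.27 between 100 and 200 kb, 0.30 between 200 and 500 kb, 0.33 between 500 and 1000 kb and 0.13 beyond, where 65 members lie.

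The members of smallest p in the lower direction included one near a factor of the same family as *Gata2*. This region, 540 kb from *Gata3* between genes (chr2:9337393-9339449), carried 46.2 and 52.8 CPM in WT against 22.0 and 21.4 CPM in Fam5snv/snv, from 132, 150, 161 and 169 cut sites. The genotypes were far apart, and the log2 fold change was −1.19 (SE 0.22, unadjusted p = 0.00108, edgeR adjusted p = 0.573). Its called length did not follow the genotype, at 1511 and 2057 bp in WT and 1676 and 1553 bp in Fam5snv/snv, and per kb of called peak the log2 difference was −1.06. At equal thinned depth, a cut site there was found in 1.86% (95% exact binomial interval from 1.31% up to 2.57%) and 2.11% (1.41% to 3.01%) of WT barcodes, against 0.836% (0.504% to 1.30%) and 1.02% (0.680% to 1.47%) of Fam5snv/snv barcodes, with intervals that cover counting error only. Without thinning the values were 2.57% and 4.94% against 3.21% and 2.74%. The other 4 members nearest to *Gata3* had log2 fold changes from −0.23 to 0.66 and unadjusted p-values from 0.412 to 0.872.

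A region 208 kb from *Tbx3*, a T-box gene, in the interval it shares with *Med13l* (chr5:119461725-119464262), carried 79.9 and 84.4 CPM in WT against 43.6 and 46.3 CPM in Fam5snv/snv. The log2 fold change was −0.87 (SE 0.19, unadjusted p = 0.00274, edgeR adjusted p = 0.573), and the called length was 1778 and 2538 bp against 2212 and 1894 bp. Summed over its 11 members, *Tbx3* carried 274 and 260 CPM in WT against 236 and 282 CPM in Fam5snv/snv, which overlap. An intronic region of *Ctnna3*, which encodes a catenin, carried 53.2 and 57.7 CPM against 24.1 and 28.1 CPM. An intronic region of *Tenm2*, a gene of a synaptic adhesion protein, carried 28.4 and 15.1 CPM against 4.92 and 3.92 CPM, and a region 101 kb from *Grm4*, a glutamate receptor gene, 134 and 101 CPM against 61.2 and 67.0 CPM. In all 5, which were picked for small p in this direction, both mutant values were below both WT values. The same held for 10.1% of all tested members and 21.4% of all tested regions. Scaling by the number of barcodes moved the median of all tested regions from 0.02 to 0.97, and on that scale these 5 regions stood at −0.27 (*Gata3*), −0.16 (*Ctnna3*), −1.21 (*Tenm2*), 0.07 (*Tbx3*) and 0.13 (*Grm4*), all below that median.

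In the higher direction, a region 126 kb from *Gm11011*, a predicted gene, carried 5.61 and 7.74 CPM in WT against 35.1 and 44.4 CPM in Fam5snv/snv (log2 fold change 2.57, SE 0.33, unadjusted p = 0.000107, edgeR adjusted p = 0.573). Its called length was 274 and 844 bp in WT and 1614 and 1631 bp in Fam5snv/snv, and per kb the log2 difference was 0.73. A region 239 kb from *Zdhhc25*, a palmitoyltransferase gene, carried 6.31 and 8.09 CPM against 35.1 and 41.5 CPM, with called lengths of 348 and 915 bp against 3649 and 4096 bp, and per kb its difference turned to −0.45. An intronic region of *Fat3*, which encodes an atypical cadherin, carried 17.9 and 13.4 CPM against 48.9 and 51.2 CPM, with a per kb difference of 0.10.

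The remaining regions rested on almost no WT peak. The one 308 kb from *Cxcr4*, a chemokine receptor gene, had 0 and 1 cut sites in called peaks of 3 and 110 bp in WT and 97 and 124 in peaks of 1588 and 1655 bp in Fam5snv/snv, a ratio of 82.7 with a 95% counting interval from 14.7 to 3282. The one 211 kb from *Bmper*, whose product binds bone morphogenetic proteins, had 1 and 1 cut sites in WT and 92 and 96 in Fam5snv/snv, a ratio of 35.2 with an interval from 9.60 to 293. Cut sites were counted only inside the peaks of each library, so a library with a short peak counts little of such a region. Whether the short WT peaks go with less binding was not tested. In all, 658 members (12.7%) had a library whose peaks covered under 10% of them.

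**Figure D5:**
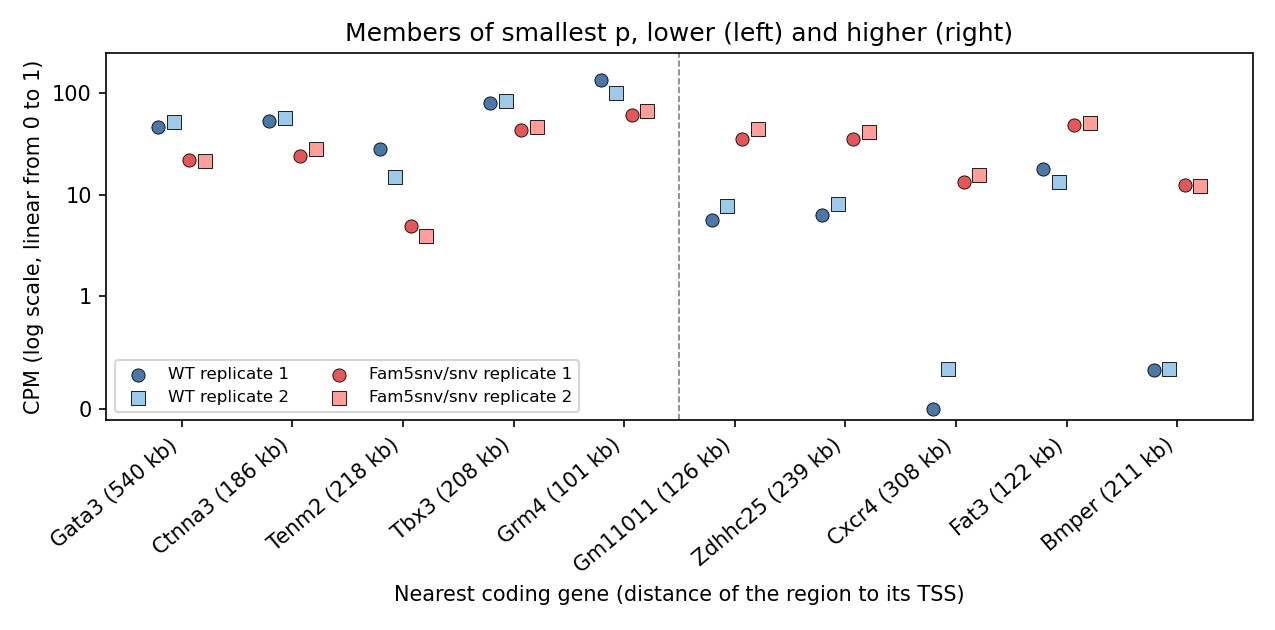
CPM of the 5 members of smallest unadjusted p in each direction (vertical axis, log scale that is linear from 0 to 1), with 1 point per library, blue for WT and red for Fam5snv/snv. The genotypes do not overlap in any of the 10, which were picked for that difference. Scaled by number of barcodes, which moves the median of all regions to 0.97, the *Tbx3* and *Grm4* differences turn to 0.07 and 0.13 and stay below that median.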

How the data were processed

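The files deposited per library hold its barcodes, its peaks without scores, and raw counts (whole cut sites) for every pair of peak and barcode. Cell Ranger ATAC on mm10 stands in the processing notes of the submitters, and the matrix headers give version 1.2.0. Peaks were called and counted separately in each library. The libraries held 2572, 1377, 2274 and 2740 barcodes with 3083946, 3580517, 8967987 and 10341894 cut sites in the order WT replicates 1 and 2, Fam5snv/snv replicates 1 and 2, and any 2 of them had 3 to 12 barcodes in common (up to 0.799% of the smaller one). Cells were not filtered, clustered or used as replicates, and no doublet caller was run.

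Counts were summed over barcodes. Shared regions that reached 10 cut sites in 2 or more libraries were fitted with edgeR 4.0.16 (R 4.3.3, TMM, quasi-likelihood, no block, common biological coefficient of variation 0.305), which was tested on simulated data, and p-values were adjusted over all tested regions. DESeq2 1.42.0 was an alternative. CPM use the TMM-scaled total of tested regions. Promoter regions overlap 1 kb on either side of a coding TSS. The named items are the 10 genes with most members, the 10 members of highest mean CPM, the 5 of smallest p in each direction, the 3 farthest, the 2 regions on either side of 100 kb and the 3 leading genes of each list, while *Isl1*, the other *Gata3* members and genes of lists with 0 members were named beside these. The members and lists were chosen with earlier results of these data known. Another marker gene is not reported here.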

Additional observations from a re-analysis of the deposited data

Results flagged for a closer look

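On the sex chromosomes, which the comparison leaves out, 56 further regions with a peak in every library lay more than 100 kb from every coding TSS, all of them on chromosome X. They held 2396 and 2054 cut sites in WT replicates 1 and 2 and 5639 and 6723 in Fam5snv/snv replicates 1 and 2. These counts are not scaled for depth. In the same order, all shared regions held 3068429, 2786703, 7167564 and 7663408 cut sites. No group here had the 4 libraries that a test for single outlying libraries needs.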

How the results depend on the processing

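The number of members was 8864 over 50 kb, 2433 over 200 kb and 914 where every library covered at least 50%. Of the 10 leading genes, 6 were kept over 200 kb, 2 with that coverage and 4 among the pairs flanking the fullest intervals. By members per Mb 5 were kept, where a floor of 0.5 Mb left out *Slc39a11*, *Matn1* and *Rapgef5* whatever their density. DESeq2 called 107 higher and 10 lower, and edgeR with that coverage 8 and 1. Leaving out 1 library gave 0 to 764 higher and 0 to 109 lower, with calls only when a WT library was left out. The median log2 fold change, 0.28, was 0.36 with each library's total over tested regions and no TMM (all regions 0.10). It was 1.24 when scaled by barcodes (all regions 0.97, so 0.28 above them). With coverage of at least 50% it was 0.20. Per kb of called peak, which was tried only after seeing the data, it was −0.70. Leaving out 1 library gave 0.25 to 0.31. The differences of share and ratio kept their direction in every alternative run. They ran from 0.05 to 0.27 for the share and from 0.10 to 0.44 for the ratio. The use of all deposited cut sites as denominator applies to the share only. Without the *Gm26917* region, tried after seeing the data too, the differences were 0.26 and 0.43. The cause of these shifts was not tested.

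Of the 10 members named for their genotype difference, the *Tbx3* and *Grm4* regions reversed to 0.066 and 0.13 when scaled by barcodes, which moves the median of all regions from 0.02 to 0.97, and the *Zdhhc25* region to −0.45 per kb. All 10, which were picked for small p in these same counts, passed the adjusted threshold with DESeq2. In edgeR 0 passed it with totals over tested regions and no TMM, with DESeq2 size factors or with the replicate number as a block.

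With the replicate number as a block, edgeR called 0 higher and 0 lower and the median was 0.33. The labels do not say that the numbers pair the libraries. The deviations of same-numbered libraries from their genotype mean correlated at 0.03 across regions. With 2 libraries per genotype this cannot show whether same-numbered libraries were handled together. Depth limits the weakest members, since the WT libraries had 32 and 33 cut sites in the median member, and the median SE of the log2 fold change was 0.78 in the weakest of 4 groups of equal size by mean CPM against 0.27 in the strongest.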
